A study of Mus musculus with 3 samples.

Results

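The genes described here encode immune checkpoint proteins, namely 8 inhibitory receptors (Pdcd1, Ctla4, Tigit, Lag3, Havcr2, Cd200r1, Btla and Cd96) and the 2 ligands of PD-1 (Cd274 and Pdcd1lg2). They were chosen by gene symbol, and each of the 10 was found among the 16129 genes listed in the expression table. They were measured by RNA sequencing of ILC2s, the innate lymphocytes of barrier tissues that release IL-5 and IL-13 without antigen recognition. The cells were sorted from enzymatically digested lungs of mice of wild-type genotype after in vivo treatment with IL-33, a cytokine released by damaged epithelium. The 3 libraries form 1 group and carried 19883728 to 19976129 estimated reads. The sources used here state neither strain, sex and age nor the IL-33 dose and the sort markers. No untreated cells were analysed here, so the levels describe IL-33-exposed cells and say nothing of the response to IL-33. The labels do not tie each library to its own animal, so SDs and p-values cover the spread between these libraries, which may be technical.

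Checkpoint receptors are surface proteins that restrain lymphocytes after activation. Several, such as PD-1, BTLA and TIGIT, carry tyrosine motifs in their tails that recruit the phosphatases SHP-1, SHP-2 or SHIP-1, while CTLA-4 also removes the shared ligands CD80 and CD86 from neighbouring cells. They are best known from T cells, where several appear together after repeated stimulation, and PD-1 is also known as a brake on ILC2s. A transcript level does not give the amount of protein at the cell surface.

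Levels are in TPM, a unit that divides reads by transcript length and scales every library to the same total, which allows genes of one library to be compared. Values are the mean ± SD over 3 libraries, and detection required at least 1 TPM in every library. Of the 10 checkpoint genes 9 were detected, against 67.3% of listed genes, and 4 averaged 100 TPM or more, against 10.3%. Their median was 57.1 TPM, and that of all listed genes was 11.2 TPM. Pdcd1, Ctla4, Tigit and Cd96 together supplied 86.6%, 87.0% and 87.4% of the summed TPM of the 10 genes in replicates 1, 2 and 3. The levels thus fell into a group of 4 high genes, a group of 5 genes between 17.67 and 72.1 TPM, and Btla near 1 TPM.

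**Figure D1:**
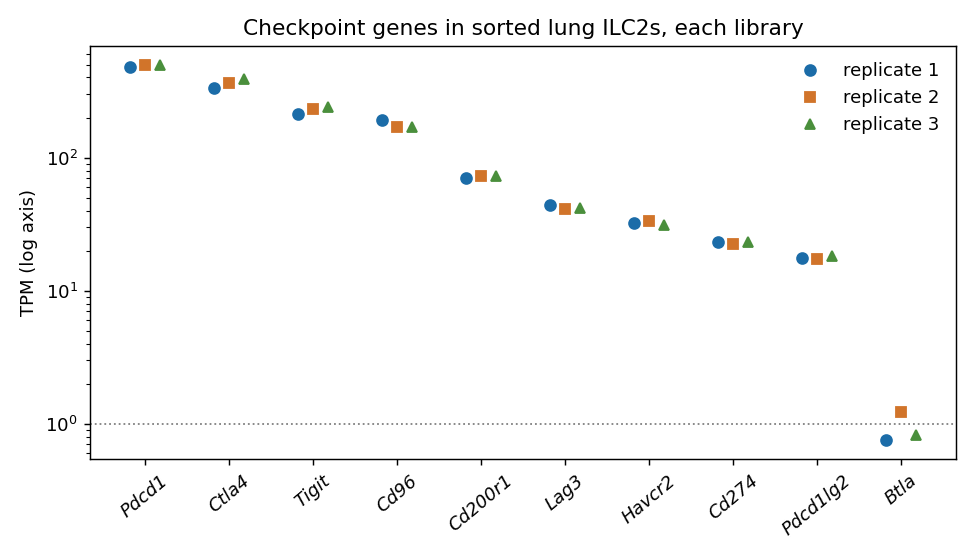
TPM (log axis) of the 10 checkpoint genes in each of the 3 libraries, in order of their mean, with the detection level of 1 TPM dotted. Points of one gene lie close together, from Pdcd1 at 483.59 to 498.72 TPM down to Btla at 0.75 to 1.22 TPM, the gene with the widest relative spread.

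Cd274 and Pdcd1lg2 are neighbours on mouse chromosome 19, and the windows before their transcription starts are shown with that of Pdcd1 because the receptor and its ligands differ in level. Each is the 250 bases before a RefSeq start in GRCm38.p6, read 5′ to 3′ on the gene's strand. Capitals mark matches, on either strand, to 5 short motifs. These were TGANTCA for AP-1, GGAAAA for NFAT, AGATAA for the GATA factors, TTCNNNGAA for STAT proteins and TATAAA for the core promoter box, and no matches overlapped here. The windows lie at chr19:29367188-29367437 (plus strand), chr19:29410669-29410918 (plus strand) and chr1:94052554-94052803 (minus strand). That of Cd274 lies inside the RefSeq interval of its gene, so it precedes a start within that interval, and it partly overlaps Plgrkt, which ends at 29367292. The windows of Tigit and Btla, not printed, also lie inside the intervals of their genes.
Cd274: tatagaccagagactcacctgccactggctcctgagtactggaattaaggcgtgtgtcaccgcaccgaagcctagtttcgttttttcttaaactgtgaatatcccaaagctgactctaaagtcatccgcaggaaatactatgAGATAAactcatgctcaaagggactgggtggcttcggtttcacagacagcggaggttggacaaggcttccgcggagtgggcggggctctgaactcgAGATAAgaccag
Pdcd1lg2: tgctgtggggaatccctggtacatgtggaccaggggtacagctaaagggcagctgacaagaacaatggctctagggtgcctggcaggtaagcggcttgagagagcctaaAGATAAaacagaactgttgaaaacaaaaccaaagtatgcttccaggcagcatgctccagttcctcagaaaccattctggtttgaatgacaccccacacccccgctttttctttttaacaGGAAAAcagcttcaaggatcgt
Pdcd1: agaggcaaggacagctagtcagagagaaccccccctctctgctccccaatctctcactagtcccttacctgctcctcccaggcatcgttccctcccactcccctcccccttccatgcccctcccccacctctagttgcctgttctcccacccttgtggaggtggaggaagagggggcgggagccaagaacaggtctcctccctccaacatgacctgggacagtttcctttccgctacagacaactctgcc
The Cd274 window held GATA motif letters beginning 108 and 12 bases before the start. That of Pdcd1lg2 held them 141 bases before the start, with the NFAT letters at 22 bases. The Pdcd1 window held none of the 5 motifs. RefSeq windows were at hand for 8 of the 10 genes, and the GATA letters occurred in 3 of these 8 (Cd274, Pdcd1lg2 and Tigit), against 9.99% of 32851 windows of the same length. The NFAT letters occurred in 3 (Ctla4, Tigit and Pdcd1lg2), against 20.4% of windows, and the AP-1 letters in 1 (Havcr2), against 6.75%. The STAT letters occurred in 1 (Cd96), against 7.02%, and the core promoter box letters in 1 (Cd96), against 12.4%. None of these shares was tested. Matches to such short motifs are a description of the sequence and do not show binding.

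The PD-1 axis was uneven between receptor and ligands. Pdcd1, which encodes PD-1 (Entrez gene 18566, chromosome 1 from 94038305 to 94052553), stood at 483.59, 498.72 and 497.17 TPM in replicates 1, 2 and 3. It ranked 257 of 16129 genes by mean level. Cd274, which encodes PD-L1 (60533, chromosome 19 from 29362107 to 29388095), stood at 23.26, 22.30 and 23.30 TPM. Pdcd1lg2, which encodes PD-L2 (58205, chromosome 19 from 29410919 to 29472927), stood at 17.49, 17.24 and 18.28 TPM. The receptor lay far above both ligands in every library, and the summed level of the ligands was 39.54 to 41.58 TPM. On the log2(TPM + 1) scale Pdcd1 exceeded Cd274 by 4.37 ± 0.052 and Pdcd1lg2 by 4.73 ± 0.044, ratios of mean TPM of 21.5 and 27.9. Cd274 exceeded Pdcd1lg2 by 0.36 ± 0.030, a ratio of 1.299, without overlap of their ranges, but this direction depends on the transcript length used and turned with another length for Pdcd1lg2. Each of the 12 gene pairs compared had 1 direction in 3 of 3 libraries. For each, p was 0.25 by an exact permutation test that flips signs (two-sided), the smallest value possible with 3 libraries, and adjustment over the 12 pairs left 0.25.

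The ligand levels carry limits of annotation. In RefSeq the Cd274 gene overlaps Plgrkt (117 ± 4.79 TPM) by 5186 bases, and 12.4% of the 50-base words in its GENCODE transcripts also occur in another annotated gene. The sources used here do not say whether reads were counted by strand. The transcript length implied by reads and FPKM was 3364, 3365 and 3368 bases for Pdcd1lg2, while its longest coding transcript in GENCODE M21 has 1729 bases, so the length that scales its TPM depends on the annotation used. Rescaled to that GENCODE length, an alternative chosen after seeing the data, Pdcd1lg2 was at 34.4 ± 1.07 TPM and Cd274, whose implied length was close to its GENCODE transcript of 3622 bases, at 23.3 ± 0.635. Cd274 minus Pdcd1lg2 then became -0.54 ± 0.026, and Pdcd1 still exceeded Pdcd1lg2 by 3.77 ± 0.045. The rescaling keeps every read of a gene, also any that lie outside the GENCODE transcript. It can therefore overstate the level of Pdcd1lg2, so the direction between the ligands stays unsettled.

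The ligand genes are also known from macrophages and dendritic cells, and some marker transcripts of these cells were detected. Of 11 listed macrophage and monocyte markers 7 were detected (63.6%, against 67.3% of all listed genes). Their summed level was 388.59, 380.60 and 531.89 TPM in replicates 1, 2 and 3. Most of it was Chil3 (375 ± 74.7), a chitinase-like gene at a level near that of Ctla4. Lyz2 stood at 39.1 ± 6.98, C1qb at 5.83 ± 1.21 and Cd68 at 4.81 ± 1.02, while Adgre1 was at 0.653 ± 0.221. Fcgr1, Mertk and Siglecf were, like Adgre1, below 1 TPM in each library, at 0.123 ± 0.0751, 0.30 ± 0.115 and 0.383 ± 0.107. The sum of the macrophage and monocyte markers in replicate 3 was 1.38 times the mean of the other libraries. The same ratio was 1.02 for Cd274, 1.05 for Pdcd1lg2, 1.005 for Cd200r1 and 0.953 for Havcr2. No macrophage or dendritic cell marker was at 0 in all libraries, and of 6 dendritic cell markers 3 were detected (50%, summed 16.54 to 20.74 TPM). These were Xcr1 (11.7 ± 1.33), a marker of conventional dendritic cells, Itgax (4.09 ± 1.06) and Zbtb46 (1.87 ± 0.0173). Clec9a, Flt3 and Siglech were below 1 TPM in each library, at 0.0367 ± 0.00577, 0.123 ± 0.0577 and 0.163 ± 0.0723 TPM. The share of Cd274 or Pdcd1lg2 transcripts from such cells was not tested. In sorted bulk samples, fewer cells of a type and less RNA per cell cannot be told apart.

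The CTLA-4 axis showed a high inhibitory receptor beside a low CD28. Ctla4 (12477, chromosome 1 from 60909025 to 60915832) stood at 335.21, 362.38 and 392.15 TPM, lowest in replicate 1 and highest in replicate 3. Its nearest protein-coding neighbours are Cd28, the costimulatory receptor that binds the same ligands, and Icos, a costimulatory receptor of the same family. Cd28 was at 1.36, 1.08 and 1.56 TPM and Icos at 489.79, 474.76 and 486.71 TPM. Levels at this locus therefore ran from just above the detection level to near that of Pdcd1. Ctla4 exceeded Cd28 by 7.29 ± 0.149 on the log2(TPM + 1) scale and was 0.42 ± 0.120 below Icos, in 3 of 3 libraries each (both p = 0.25 by the exact sign-flip permutation test). The CTLA-4 ligand genes Cd80 and Cd86, named after their values were seen, were detected at 2.80 ± 0.340 and 1.91 ± 0.216 TPM.

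Tigit, Cd96 and Cd226 encode receptors that share the ligand CD155, the first known to inhibit, the last to stimulate, and CD96 described with either role. Tigit (100043314, chromosome 16 from 43626137 to 43665125) stood at 211.76, 233.48 and 240.45 TPM. Cd96 (84544, chromosome 16 from 46035652 to 46120248) stood at 191.35, 168.45 and 170.68 TPM, highest in replicate 1, where Tigit was lowest. Cd226 stood at 130.71, 129.82 and 120.62 TPM. All 3 receptors were thus above 100 TPM in every library, and their ranges did not overlap. Tigit exceeded Cd96 by 0.37 ± 0.194 and Cd226 by 0.84 ± 0.149, and Cd96 exceeded Cd226 by 0.47 ± 0.089 on the log2(TPM + 1) scale. These 3 differences rest on transcript length. In reads scaled for depth but not divided by length they became -0.11 ± 0.166, -0.31 ± 0.130 and -0.20 ± 0.076. Rescaled to the longest GENCODE coding transcripts they were 1.14 ± 0.166, 1.97 ± 0.129 and 0.83 ± 0.076. The ligand gene Pvr, which encodes CD155 and is named after its value was seen, was at 1.69 ± 0.272 TPM, and Nectin2, a further TIGIT ligand gene, at 0.25 ± 0.0819.

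The length behind Tigit's TPM also differed between libraries. The reads and FPKM of replicates 1, 2 and 3 imply transcript lengths of 1563, 1527 and 1495 bases, whereas those of Pdcd1 were 1881 in each library. Its highest library exceeded its lowest by a factor of 1.14 in TPM and of 1.07 in estimated reads. The single coding transcript of Tigit in GENCODE M21 has 919 bases, so longer models entered the deposited values. Rescaled to 919 bases Tigit was at 380 ± 17.1 TPM, which can be too high because reads outside that transcript stay counted. In RefSeq the Tigit gene overlaps Zbtb20 (2.10 ± 0.261 TPM) by 8256 bases, and 4.37% of its 50-base words occur in another gene.

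**Figure D2:**
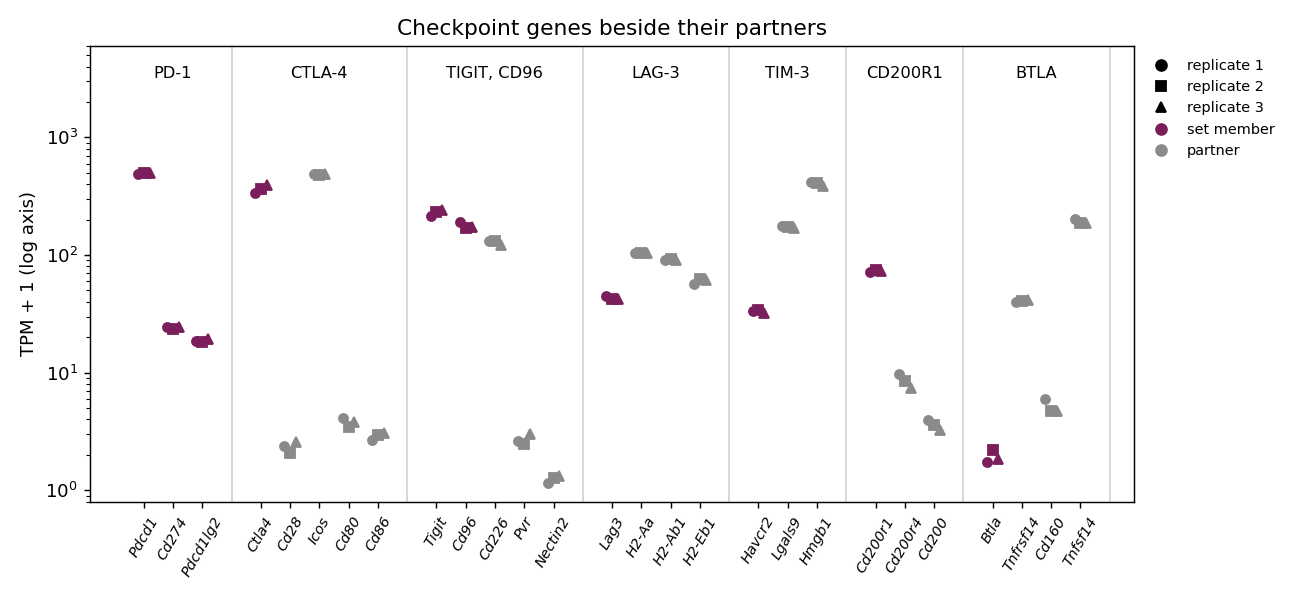
TPM + 1 (log axis) in each library for the checkpoint genes (purple) and genes of their ligands, shared-ligand receptors or relatives (grey), grouped by axis. Pdcd1 lies above its ligands and Ctla4 above Cd28, Cd80 and Cd86, whereas Havcr2, Lag3 and Btla lie below partners such as Lgals9, H2-Aa and Tnfrsf14.

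Among the receptors of intermediate level, Cd200r1 was the highest. It encodes an inhibitory receptor for CD200 (57781, chromosome 16 from 44765736 to 44794977) and stood at 70.64, 73.31 and 72.30 TPM. The ligand gene Cd200 was at 2.98, 2.61 and 2.28 TPM, and Cd200r4, an activating relative next to Cd200r1 on the chromosome, at 8.65, 7.42 and 6.45 TPM. Cd200r1 thus lay above both in every library. It exceeded Cd200 by 4.34 ± 0.158 and Cd200r4 by 3.11 ± 0.205 on the log2(TPM + 1) scale (p = 0.25 each by the exact sign-flip permutation test). The implied lengths of Cd200r4 were 2433, 2734 and 2460 bases in replicates 1, 2 and 3, against 2005 in its longest GENCODE coding transcript. Rescaled to the longest GENCODE coding transcripts, Cd200r1 still exceeded Cd200r4, by 2.77 ± 0.208. Of the 50-base words of Cd200r1 1.16% occur in another gene, 40 words in Cd200r4. The further relatives Cd200r2 and Cd200r3 were at 0.170 ± 0.125 and 0.183 ± 0.101 TPM, below 1 TPM in each library.

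Lag3 encodes a CD4-related receptor for class II molecules (16768, chromosome 6 from 124904359 to 124912434) and stood at 43.97, 40.90 and 41.59 TPM. The neighbouring gene Cd4 was at 0.07, 0.03 and 0.06 TPM, so the genes of this related pair differed widely in level. The class II genes H2-Aa, H2-Ab1 and H2-Eb1 lay above Lag3, at 103 ± 0.505, 90.4 ± 1.31 and 59.0 ± 3.13 TPM. Havcr2 encodes TIM-3 (171285, chromosome 11 from 46454931 to 46481255) and stood at 32.33, 33.40 and 31.32 TPM. Its reported ligand gene Lgals9, for galectin-9, was at 174.45, 172.48 and 167.31 TPM. Here the ligand gene was the higher one, and Havcr2 lay 2.37 ± 0.032 below it on the log2(TPM + 1) scale.

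Btla was the lowest of the set. BTLA (208154, chromosome 16 from 45223705 to 45252895) binds HVEM, the product of Tnfrsf14. Btla was at 0.75, 1.22 and 0.83 TPM, from 22.99, 36.89 and 25.00 estimated reads, and reached 1 TPM in 1 library. Tnfrsf14 was at 38.97, 39.42 and 40.83 TPM, so the receptor lay 4.40 ± 0.189 below its partner on the log2(TPM + 1) scale. The implied length of Tnfrsf14 was 4648 to 4690 bases, against 1173 in its longest GENCODE coding transcript. Rescaled to that length Tnfrsf14 was at 158 ± 3.15 TPM, and Btla lay 6.38 ± 0.186 below it. Both values can be too large, because reads outside the GENCODE transcript stay counted. Of other HVEM-binding genes, Tnfsf14 (LIGHT) stood at 191 ± 8.82 TPM and Cd160 at 4.15 ± 0.748. At this depth Btla is close to the limit of the measurement. Its reads varied by 26.8% between libraries (coefficient of variation), where Poisson counting of its reads alone would give 18.8%. B cells are known for high Btla, and of 4 B cell markers 0 were detected, against 67.3% of all listed genes. They summed to 1.80, 2.63 and 1.78 TPM in replicates 1, 2 and 3, highest in replicate 2 as Btla was. Most of this sum was Cd79a at 1.52, 1.99 and 0.99 TPM, which was just below the detection level in replicate 3 only. The part of B cells in the Btla level was not tested.

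**Figure D3:**
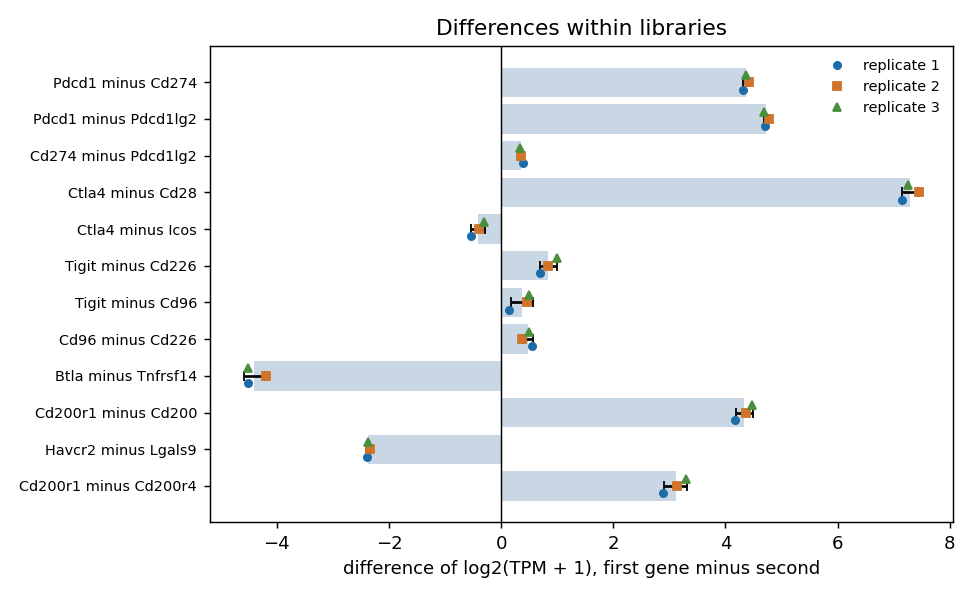
Differences of log2(TPM + 1) between the first and the second gene of each of the 12 pairs, as bars for the mean, error bars for the SD over 3 libraries and points for each library. Points of a pair lie on one side of 0, closest to it for Tigit minus Cd96 at 0.15 in replicate 1.

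In order of mean deposited TPM the genes ran Pdcd1, Ctla4, Tigit, Cd96, Cd200r1, Lag3, Havcr2, Cd274, Pdcd1lg2 and Btla. No neighbours in this order overlapped in range, and each difference between neighbours exceeded its SD. The closest were Cd274 and Pdcd1lg2 (ratio 1.299), Tigit and Cd96 (1.29) and Lag3 and Havcr2 (1.303). The widest steps were from Pdcd1lg2 to Btla (18.9) and from Cd96 to Cd200r1 (2.45). This order depends on the lengths, and the rescaled levels of Tigit and Pdcd1lg2 can be too high, as described above. Rescaled to the longest GENCODE coding transcripts, Tigit (380 ± 17.1) passed Ctla4 (354 ± 27.9), with overlapping ranges, and Pdcd1lg2 (34.4 ± 1.07) passed Havcr2 (31.8 ± 1.02) and Cd274. Pdcd1 remained first, Cd96, Cd200r1 and Lag3 held ranks 4 to 6, and Btla remained last. Of all listed genes, the 3 nearest to Pdcd1 in level over the 3 libraries were Prelid1, Tmem59 and Eif4b, within 0.055 on the log2(TPM + 1) scale in any library. Those nearest to Ctla4 were Acap1, Ero1l and Raly (within 0.085), and those nearest to Tigit were Acsbg1, Sun2 and Glul (within 0.065).

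The spread between libraries was not alike among the genes. Pdcd1 varied least, with a coefficient of variation of 1.69%, followed by Cd200r1 (1.87%) and Cd274 (2.47%). Ctla4, Cd96 and Tigit varied by 7.84%, 7.14% and 6.55%. The median over 8262 genes with at least 10 TPM was 3.87%, and 3 of the 9 checkpoint genes at that level lay above it. In depth-scaled reads, Pdcd1 varied by 1.02% where Poisson counting alone gives 1.06%. Ctla4 varied by 7.03% against 1.24%, Cd96 by 7.99% against 1.67% and Tigit by 3.71% against 1.73%. These 3 spread more widely than counting alone gives, as separate libraries usually do. Ctla4 and Tigit were lowest in replicate 1, where Cd96 was highest.

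**Figure D4:**
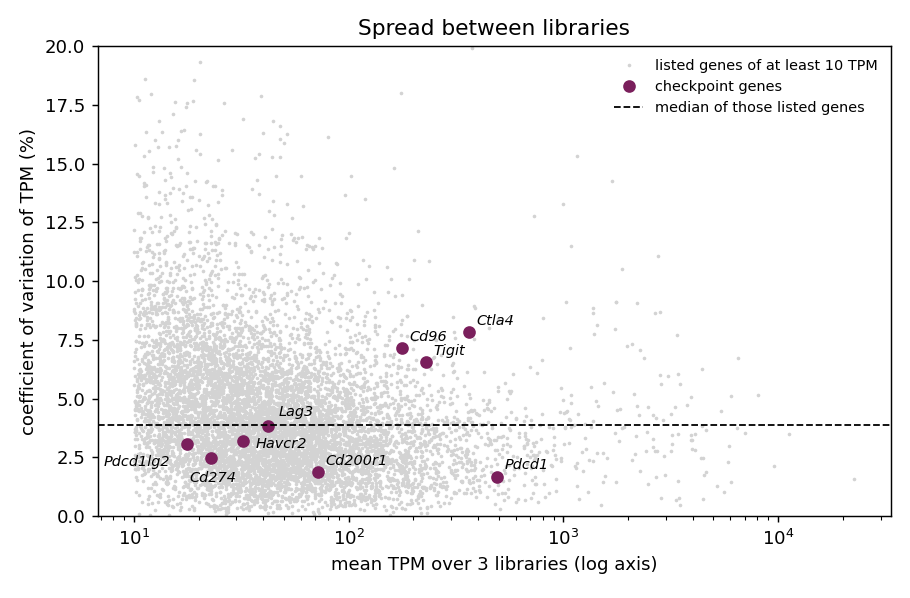
Coefficient of variation of TPM over 3 libraries (%) against mean TPM (log axis) for listed genes of at least 10 TPM (grey, 24 genes above 20% not shown), with the 9 checkpoint genes at that level in purple and the median of listed genes dashed. Ctla4, Cd96 and Tigit lie above the median, and Pdcd1 lies well below it.

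T cells are the other well-known source of Ctla4, Tigit and Pdcd1. Of 5 listed alpha-beta T cell markers 2 were detected (40%, against 67.3% of all listed genes). The summed level of the 5 was 8.25, 9.45 and 12.72 TPM in replicates 1, 2 and 3. Ctla4 and Tigit had the same order over the libraries, and Pdcd1, highest in replicate 2, did not. This order was not particular to the T cell list. The summed NK cell markers also rose from replicate 1 to 3, as did the summed mast cell and basophil markers (5.02, 5.03 and 6.08 TPM). Cd3e supplied most of the alpha-beta T cell sum (7.19 ± 1.57), while Cd8b1 was at 0.00, 0.17 and 0.51 TPM. Trac, Trbc1 and Trbc2, the constant regions of the T cell receptor, were not analysed here. Foxp3, which defines regulatory T cells rich in CTLA-4 and TIGIT, was at 0.18, 0.12 and 0.30 TPM. The 5 regulatory T cell markers summed to 35.74, 36.95 and 35.38 TPM, nearly all of it Ikzf2 (25.2 ± 0.264) and Ikzf4 (10.5 ± 0.636). The order of that sum over the libraries was the order of Ikzf2 and Ikzf4. Foxp3, Cd4 and Lrrc32 were each below 1 TPM in each library. Of 6 NK cell markers 0 were detected, with sums of 1.08, 1.93 and 1.97 TPM in replicates 1, 2 and 3. No marker of the alpha-beta T cell, regulatory T cell and NK cell lists was at 0 in all libraries. Their part in the spread of Ctla4 and Tigit was not tested. By contrast, each of the 10 ILC2 markers examined, among them Gata3 (256 ± 4.999) and Il1rl1 (1064 ± 33.2), averaged over 100 TPM.

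The wider checkpoint machinery was mostly detected. Of 17 signalling genes 16 were detected, with a median of 108 TPM. Ptpn22, a phosphatase that restrains antigen receptor signalling, stood at 385 ± 8.43, Ppp2ca at 311 ± 24.4, the kinases Csk and Lck at 309 ± 8.74 and 259 ± 7.98, and the adaptor Grb2 at 210.0 ± 9.16. The phosphatases that checkpoint tails recruit, named after their values were seen, were at 66.4 ± 1.06 (Ptpn6, SHP-1), 52.8 ± 1.67 (Ptpn11, SHP-2) and 156 ± 6.27 TPM (Inpp5d, SHIP-1). Dok2 and Dok1, adaptors of CD200R1, were at 108 ± 3.14 and 62.1 ± 1.002, and Bag6, which binds the tail of TIM-3, at 119.5 ± 5.50, likewise named after their values were seen. Sh2d1b1, an adaptor of SLAM family receptors, was the signalling gene below 1 TPM in each library, at 0.153 ± 0.0874. All 15 listed genes of protein handling were detected. They included Ap2m1, of the adaptor that takes CTLA-4 into the cell (253 ± 5.73), Cmtm6, which stabilises PD-L1 (151 ± 3.34), Def6 (136 ± 2.73), the sheddase gene Adam10 (115 ± 2.47), whose product cleaves LAG-3, and Spop (93.8 ± 3.06).

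Of 19 transcription factors linked to checkpoint expression 18 were detected. Nr4a1 stood at 542 ± 22.8, Batf at 172 ± 7.39, Stat3 at 145 ± 2.91 and Stat6 at 132 ± 2.60 TPM. Tox and Tox2, known from T cells with sustained checkpoint expression and named after their values were seen, were at 84.2 ± 2.44 and 109 ± 6.02. Eomes was below 1 TPM in each library, at 0.19 ± 0.07. These counts exceed the 67.3% of listed genes detected, but the lists were picked as immune genes and no list was tested.

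Ligands and further receptors were more mixed. Of 17 listed ligand genes 11 were detected (64.7%), near the background share. Hmgb1, a nuclear protein and reported TIM-3 ligand whose level can be blurred by its pseudogenes, stood at 407 ± 15.9, and Lgals3 at 105 ± 2.50. Ceacam1, Nectin1, Nectin2 and Nectin3 were below 1 TPM in each library, the highest of them Nectin3 at 0.763 ± 0.146. Of 18 other inhibitory receptor genes 12 were detected (66.7%). They were led by Klrg1 (356 ± 12.8), Pecam1 (79.8 ± 2.76), Cd72 (73.4 ± 1.72), Lilrb4a (62.8 ± 2.01) and Cd101 (33.0 ± 0.936), and Lilrb4a has a close relative with which reads can be shared. Cd22, Cd300a, Cd5 and Klrc1 were below 1 TPM in each library. Of 7 genes of stimulatory counterparts 5 were detected (71.4%, near the 67.3% of all listed genes), and Havcr1 (TIM-1) was at 0.0333 ± 0.0577. Among 5 listed relatives 2 were detected (40%), Cd200r4 and the ICOS ligand gene Icosl (149 ± 4.57), while Timd2 was at 0.213 ± 0.0451.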

How the data were processed

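RNA of ILC2s sorted from lungs of IL-33-treated wild-type mice was sequenced in 3 libraries of 1 group, replicates 1 to 3 as in their titles. Bowtie2, RSEM 1.3.1 and GRCm38.p6 appear in the submitters' processing notes without their roles; annotation, read length and strand setting are not given there. Per the file headers, the authors deposited TPM, FPKM, expected counts (reads estimated per gene) and normalised read counts, a depth-scaled signal that was not used. TPM was analysed; intervals from replicates rest on 3 libraries.

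The genes, lists, 12 pairs and motifs were chosen with earlier results of these data known. Pair differences are within-library differences of log2(TPM + 1), a scale that shrinks ratios of low genes, tested by an exact two-sided sign-flip permutation test with Benjamini-Hochberg adjustment over the 12 pairs. Named genes are the 10 checkpoint genes, both genes of each pair, the 5 highest and up to 4 genes below 1 TPM of each list (alphabetically), the 3 genes nearest in level to the 3 highest members, and the highest genes of each marker list and neighbours on the chromosome; not each of these is printed, 1 gene that the rule names is not reported here, and others are marked. Of 172 genes in the lists, 11 were not listed and not analysed here. Implied length is reads divided by FPKM and by the library's total reads. It is not a full transcript length. For Pdcd1, Cd200r1, Cd96 and Lag3, each with 1 coding transcript in GENCODE M21, it was 0.97 to 0.98 of that transcript's length. Rescaling therefore put these genes slightly below their deposited TPM. Rescaling keeps all reads of a gene, so it can overstate the level where the implied length is above the GENCODE length. Shared 50-base words were counted over GENCODE M21 transcripts on both strands. Gene positions and promoter windows are from RefSeq for GRCm38.p6, and the 10 genes matched by Entrez ID. TMM factors came from edgeR 4.0.16 on rounded counts. The coefficient of variation was tested on simulated counts, and the pair difference and sign-flip test on constructed values. The other calculations were not tested in this way. Alternatives were a pseudocount of 0.1, FPKM, depth-scaled reads without division by length, TMM scaling, detection levels of 0.5 and 5, a level of 50 TPM, the SD of log2 values for the spread, leaving out each replicate and, added after seeing the data, TPM multiplied by the implied length and divided by that of the longest GENCODE coding transcript.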

Additional observations from a re-analysis of the deposited data

How the results depend on the processing

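Of 109 recomputed values, 105 kept their direction or stayed within 1.5 times their count, and 4 reversed. Of the reversals 3 came with depth-scaled reads not divided by length, which by construction favours longer transcripts: Tigit minus Cd226 became -0.31, Tigit minus Cd96 -0.11 and Cd96 minus Cd226 -0.20 on the log2 scale. With TPM rescaled to the longest GENCODE coding transcript, chosen after seeing the data, Cd274 minus Pdcd1lg2 became -0.54. That rescaling can overstate Pdcd1lg2. Differences between pairs shifted by at most 0.112 when 1 replicate was left out, 0.607 with FPKM, 0.891 with a pseudocount of 0.1, 1.15 without division by length and 1.98 with the GENCODE lengths (Btla minus Tnfrsf14), and by under 0.001 with TMM scaling. With 2 libraries the sign-flip test cannot give a p below 0.5, so no p-value here speaks to stability. Btla was counted as detected at a level of 0.5 TPM, which made 10 of 10. With FPKM, 3 genes had a mean of at least 100, and at a level of 50 TPM there were 5. The number of genes varying more than the median was 3 with log2 values and 4 in depth-scaled reads, the latter chosen after seeing the data. No comparison between groups, paired or not, was possible because the libraries form 1 group. Only genes were paired, within each library. Depth limits Btla, at 28.3 estimated reads per library on average.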
